A study of Mus musculus with 12 samples.

Results

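Skin of Tcn2-deficient mice given imiquimod (IMQ) was compared with skin of wild-type mice whose labels name no treatment, over all genes of the deposited count table. The comparison used 7 of the 12 libraries, chosen by their labels alone: 4 Tcn2-/- IMQ libraries and 3 control libraries. The 5 IMQ libraries were labelled IMQ-induced, which the study's design text describes as wild type. They entered the same statistical fit and are given beside the others to show which part of the IMQ response was also seen without Tcn2. No library came from Tcn2-/- skin without IMQ, so genotype and treatment cannot be told apart in the comparison with control. The Tcn2-/- animals are described only as deficient mice, with no conditional driver named. Strain, age, imiquimod dose and days of treatment were not given in the sources used here. The labels give the tissue as skin, although the sample titles begin with the word Muscle. They do not say whether numbered libraries came from separate animals, so p-values measure the spread between these libraries.

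Imiquimod is an agonist of Toll-like receptor 7 that, applied to mouse skin, produces scaling, epidermal thickening and leukocyte infiltration, and it is used as a model of psoriasis. Thickened psoriatic epidermis makes wound keratins, small proline-rich proteins, late cornified envelope proteins and antimicrobial S100 proteins. Dendritic cells, gamma-delta T cells and neutrophils supply cytokines of the interleukin-23, interleukin-17 and interleukin-1 families. Tcn2 encodes transcobalamin 2, the plasma carrier that delivers vitamin B12 to cells through the receptor CD320. Within cells the vitamin serves methionine synthase and methylmalonyl-CoA mutase.

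Library totals ran from 16182324 to 18503487 counts, and 18147 of 33539 genes were tested. Levels below are CPM, read counts scaled to library size, a measure not corrected for gene length, so they are compared only between libraries for the same gene. The keratinocyte genes Krt5, Krt14, Krt1 and Krt10 were at 335 CPM or more in every library. Skeletal muscle transcripts were also present in every library: Acta1, skeletal actin, was at 3133 to 5481 CPM in controls, at 720 to 2183 in IMQ and at 2805 to 11470 in Tcn2-/- IMQ. In bulk skin, fewer cells of a type and less RNA per cell cannot be told apart.

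Several libraries stood apart. Control replicate 1 had 10.3% of its counts on mitochondrial genes and Tcn2-/- IMQ replicate 2 had 8.08%, against 2.78% to 6.06% in the other 10. On the first principal component (34.1% of the variance) these libraries sat at -140.5 and -98.6, and no other was below -34.1. Xist was counted 18572 or more times in control replicates 2 and 3 and in IMQ replicate 1, and at most 8 times elsewhere, whereas the Y-linked gene Ddx3y was counted 1605 or more times in the other 9 libraries. All 4 Tcn2-/- IMQ libraries and only control replicate 1 were thus from males, and in this comparison sex, genotype and treatment largely coincide. Tcn2-/- IMQ replicates 1 and 2 also differed from replicates 3 and 4 in most of the epidermal genes described below. These values are given beside the results they move with, and their part in the results was not tested beyond the refits named there.

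In Tcn2-/- IMQ skin, 105 genes were higher than in control skin (0.579% of those tested) and 133 were lower (0.733%) at a Benjamini-Hochberg adjusted p below 0.05 in edgeR's quasi-likelihood test. The median log2 change of all tested genes was 0.01. In the same fit, IMQ skin had 126 higher genes (0.694%) and 97 lower genes (0.535%) than control, with a median of -0.004. The 2 comparisons share the same 3 control libraries. Of the genes higher in IMQ, 79 were also called higher in Tcn2-/- IMQ, which is 62.7% of the IMQ list and 75.2% of the Tcn2-/- IMQ list. Of the genes lower in IMQ, 32 were also called lower in Tcn2-/- IMQ, which is 33% of the IMQ list and 24.1% of the Tcn2-/- IMQ list. All 126 genes higher in IMQ had a positive change in Tcn2-/- IMQ, 121 of them at least 2-fold. Of the 97 lower genes, 96 had a negative change and 1 a positive one, and 73 changed at least 2-fold. The median log2 change of these 97 was -1.5 in Tcn2-/- IMQ and -2.48 in IMQ, the latter being the value that chose them. No gene of either list was called between Tcn2-/- IMQ and IMQ. Because the controls are shared, these signs are not independent. For the 133 lower genes the median log2 change against control was -3.66 in Tcn2-/- IMQ and -1.34 in IMQ, the first of these being the value that chose them.

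The libraries behind these calls were few. Over the 105 higher genes, the median level was 3.41, 4.27 and 4.26 CPM in control replicates 1 to 3. It was 27.3 and 20.3 CPM in Tcn2-/- IMQ replicates 1 and 2, and 78.3 and 69.4 in replicates 3 and 4. Replicates 3 and 4 were both above replicates 1 and 2 for 86 of the 105 genes. Over the 133 lower genes, the median level was 6.21 CPM in control replicate 1, 18.5 and 17.4 in control replicates 2 and 3, and 0.68 to 1.49 in the Tcn2-/- IMQ libraries. Control replicate 1 was the lowest control for 110 of these 133. All 105 higher genes and 129 of the 133 lower genes were called without overlap between the groups. Among all tested genes, every Tcn2-/- IMQ library was above every control for 848 genes (4.67%) and below every control for 1071 genes (5.9%).

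The call counts depended on single libraries. Without control replicate 2 the fit called 7 higher and 9 lower genes, and without control replicate 3 it called 1 and 2, namely Cstdc5 (a cystatin named after its values were seen), Gm15446 and Il18r1. Without Tcn2-/- IMQ replicate 3 it called 16 higher and 11 lower, and without replicate 4 it called 17 and 14. Without control replicate 1, in contrast, it called 106 higher and 322 lower. With sex as a covariate 19 higher and 8 lower genes were called, and among the libraries with Y-linked reads alone (1 control library) none was, with 2435 genes at an unadjusted p below 0.05. DESeq2 called 523 higher and 527 lower genes. Without control replicate 2 or 3, no member of the Lce3 and Sprr, wound keratin, stefin, MHC class II, dendritic, T and natural killer cell or chemokine lists described below was called. Without Tcn2-/- IMQ replicate 3, the Lce3 and Sprr list kept 2 calls, the wound keratins 3 and the stefins 3, and the other 4 of these lists 0. The late cornified list had 1 call without control replicate 2 and 0 without control replicate 3. It had 3 without Tcn2-/- IMQ replicate 3 and 3 without replicate 4. The antimicrobial list had 0 calls in each of these fits. None of the 238 called genes changed sign in any of the 24 alternative fits. That outcome was nearly fixed, since these genes were chosen by the same values and almost all lacked overlap between the groups. The calls below are to be read with the numbers of calls under each setting. The bar plot of calls by setting shows the same values.

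**Figure D1:**
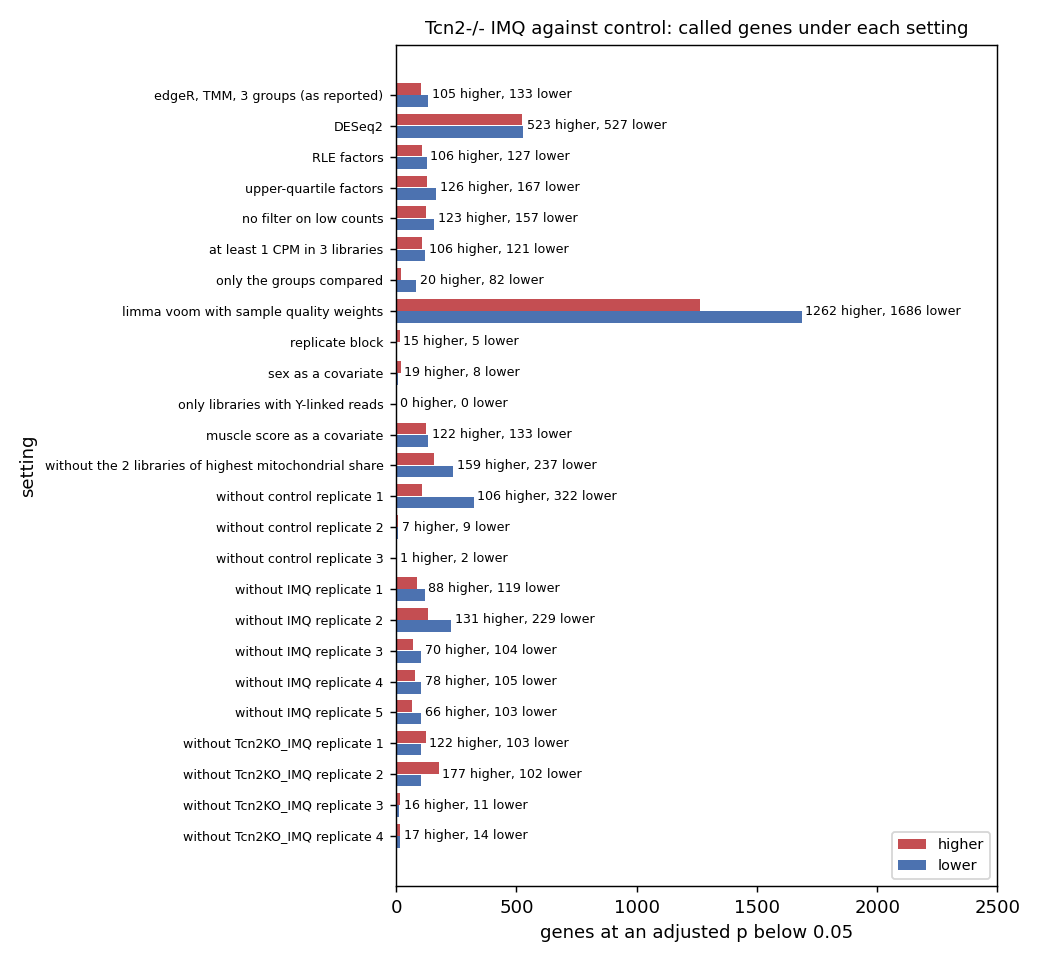
Genes called higher (red) and lower (blue) in Tcn2-/- IMQ against control at an adjusted p below 0.05; the horizontal axis is the number of genes and each row is 1 setting, the top row being the fit reported. The counts run from 0 among libraries with Y-linked reads to 1262 higher and 1686 lower with limma voom, and leaving out control replicate 3 leaves 3 calls.

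The cornified envelope part of the response was present without Tcn2. Of 21 tested genes of the Lce3 and Sprr families, which encode envelope precursors made by stressed epidermis, 13 were higher in Tcn2-/- IMQ than in control and none was lower, with a median log2 change of 7.02. In IMQ 17 of the same 21 were higher, with a median of 8.71. Sprr1b, a small proline-rich envelope protein, was at 1.04, 1.91 and 1.25 CPM in controls. It was at 69.3, 59.6, 770 and 596 CPM in Tcn2-/- IMQ replicates 1 to 4, and at 294 to 820 in IMQ. Every Tcn2-/- library was above every control, replicates 1 and 2 by less than replicates 3 and 4. Its log2 change against control was 8.05 ± 1.12 (SE, adjusted p = 0.00967).

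Lce3c, a late cornified envelope protein of the stress type, was at 0.165 to 0.842 CPM in controls and at 28.7, 14.6, 391 and 157 CPM in Tcn2-/- IMQ (log2 change 7.93 ± 1.28, adjusted p = 0.0219). Lce3a had 2 counts in all controls and 3558 in the Tcn2-/- IMQ libraries, a ratio of 1420 with an exact 95% counting interval of 394 to 11800. Most of those counts came from replicates 3 and 4, at 147 and 65.9 CPM, against 2.44 and 1.01 in replicates 1 and 2. The summed level of the list, which the most abundant members set, was 292 and 236 CPM in Tcn2-/- IMQ replicates 1 and 2. That was below the 805 and 844 of control replicates 2 and 3 and above the 100.5 of control replicate 1. In replicates 3 and 4 the sum was 3704 and 3019 CPM, within the IMQ range of 2447 to 4671. The Lce3 and Sprr genes are close relatives, and reads shared between copies were not resolved here.

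The wound keratins behaved in the same way. Of 25 genes of wounded or stressed epidermis, 9 were higher in Tcn2-/- IMQ (median log2 change 3.13) and 13 in IMQ (median 3.82), and none was lower in either. Krt16, a keratin of hyperproliferative epidermis (chromosome 11, 100136917 to 100139728, GRCm39), was at 10.7, 24.2 and 18.5 CPM in controls. In Tcn2-/- IMQ it was at 388, 230, 5666 and 4211 CPM, and in IMQ it was at 1611 to 4031. The first pair of Tcn2-/- libraries was below the whole IMQ range and the other pair above it. Relative to control the log2 change was 7.20 ± 1.21 (SE, adjusted p = 0.0224). The change against IMQ was 0.16 (adjusted p = 0.951). Krt6b, which pairs with Krt16 in filaments, was at 3.01 to 12.02 CPM in controls and at 348, 69.1, 8498 and 6414 in Tcn2-/- IMQ (log2 change 9.29 ± 1.72, adjusted p = 0.0288). Its near copy Krt6a was at 56.1 to 73.1 CPM in controls and at 222, 210, 3846 and 2657 in Tcn2-/- IMQ (4.73 ± 1.02, adjusted p = 0.047).

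Stefins, cysteine protease inhibitors of neutrophils and differentiating epidermis, were higher in 5 of 7 tested members of the stefin A family, both in Tcn2-/- IMQ (median log2 change 5.40) and in IMQ (median 6.39). Stfa1 was at 2.64, 2.42 and 7.44 CPM in controls and at 112, 174, 622 and 792 CPM in Tcn2-/- IMQ, with 423 to 1027 in IMQ. All Tcn2-/- libraries were above all controls, at a log2 change of 6.67 ± 0.85 (adjusted p = 0.00789). Stfa3 was at 30.9 to 52.4 CPM in controls, at 531, 1257, 2493 and 2456 in Tcn2-/- IMQ and at 1872 to 6253 in IMQ (5.40 ± 0.71, adjusted p = 0.00789). Stfa2 and Csta1 were called as well, at 7.57 (adjusted p = 0.00789) and 3.91 (adjusted p = 0.027). Cstdc6, a related cystatin, had 3 counts in all controls together and 1881 in the Tcn2-/- IMQ libraries, a ratio of 502 (exact 95% counting interval 172 to 2440). These genes form 1 cluster of similar copies on chromosome 16, so their separate values are uncertain.

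Late differentiation genes were high in both IMQ groups. Of 41 tested genes of the late cornified layer, 11 were higher in Tcn2-/- IMQ and none was lower (median log2 change 2.20), and in IMQ 9 were higher and 1 was lower (median 1.57). Flg, which encodes filaggrin, the protein that bundles keratin and feeds the skin's moisture factors, was at 71.2, 38.7 and 55.2 CPM in controls. It was at 1390, 1803, 1391 and 1772 CPM in Tcn2-/- IMQ and at 398 to 1752 in IMQ. Here the 4 Tcn2-/- libraries were close to each other, at 1589 ± 230 CPM (SD, n = 4) against 55.04 ± 16.3 (SD, n = 3) in controls, and the log2 change was 4.85 ± 0.55 (SE, adjusted p = 0.00605). Casp14, a caspase that processes filaggrin, was at 51.2, 29.4 and 46.0 CPM in controls and at 297, 363, 877 and 948 in Tcn2-/- IMQ (3.88 ± 0.52, adjusted p = 0.00841). Rptn, repetin, an envelope-associated matrix protein, was at 0.44 to 16.96 CPM in controls and at 589, 445, 4914 and 3676 in Tcn2-/- IMQ (7.79 ± 1.46, adjusted p = 0.0294). Lor, loricrin, did not pass, at 31.5, 502 and 412 CPM in controls and 1265, 619, 1677 and 1410 in Tcn2-/- IMQ (1.98 ± 0.78, adjusted p = 0.29).

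Of the epidermal kallikreins, proteases that shed corneocytes, Klk8, Klk13 and Klk11 were called higher. They are described as single genes, and no share of the family is given here. Klk8 was at 29.6, 20.6 and 19.5 CPM in controls, at 124, 135, 351 and 240 in Tcn2-/- IMQ and at 129 to 235 in IMQ (log2 change against control 3.20 ± 0.40, adjusted p = 0.00756). Klk13 was at 1.10 to 2.84 CPM in controls and at 27.3, 26.2, 189 and 179 in Tcn2-/- IMQ, with all 5 IMQ libraries at 160 to 211 (5.57 ± 0.81, adjusted p = 0.0127). Klk11 was at 13.3 to 19.5 CPM in controls and at 39.2, 51.6, 66.1 and 82.9 in Tcn2-/- IMQ (1.82 ± 0.31, adjusted p = 0.0224). The replicates 1 and 2 of Tcn2-/- IMQ were again below 3 and 4 for each of them. Basal keratinocyte markers had no called member in Tcn2-/- IMQ among 14 tested, and their median log2 change was 0.20.

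**Figure D2:**
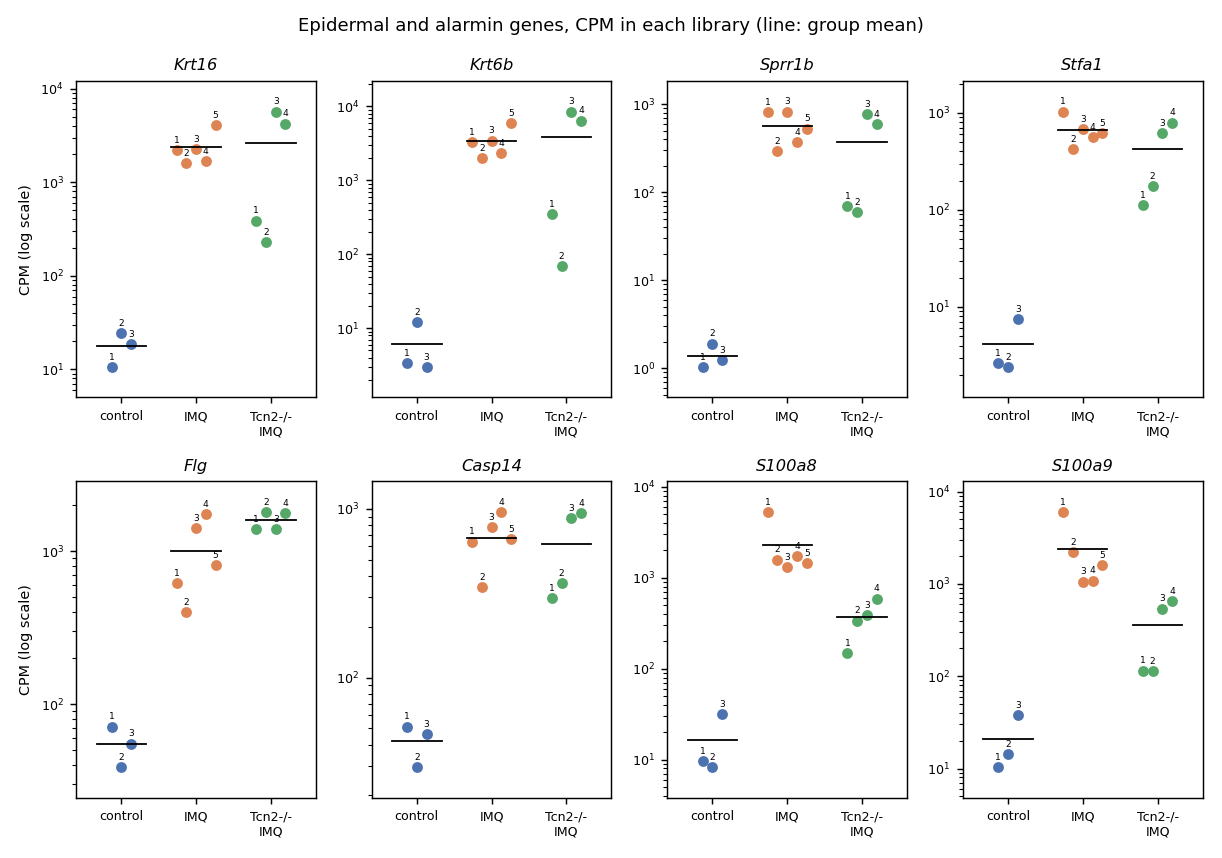
CPM on a log scale in every library for 8 genes of the epidermal response; numbers beside the points are replicate numbers and the line is the group mean. All 4 Tcn2-/- IMQ libraries lie above all 3 controls in each panel, replicates 1 and 2 lie below replicates 3 and 4 for Krt16, Krt6b, Sprr1b, Stfa1, Casp14, S100a8 and S100a9, and S100a8 reaches 592 CPM against 1302 or more in IMQ.

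Among 21 tested antimicrobial genes 3 were higher in Tcn2-/- IMQ (median log2 change 2.46) and 4 in IMQ (median 4.30). S100a8, a subunit of the antimicrobial calprotectin, was at 9.68, 8.26 and 31.7 CPM in controls, at 148, 337, 388 and 592 in Tcn2-/- IMQ, and at 1302 to 5291 in IMQ. The 3 groups did not overlap, and the Tcn2-/- mean of 366 ± 182 CPM (SD, n = 4) stood between 16.6 ± 13.2 (SD, n = 3) and 2277 ± 1693 (SD, n = 5). Against control the log2 change was 4.47 ± 0.77 (adjusted p = 0.0224). Against IMQ it was -2.64, which did not pass (adjusted p = 0.134). S100a9, the partner subunit, was at 10.3 to 37.9 CPM in controls and at 115, 114, 541 and 656 in Tcn2-/- IMQ, against 1058 to 6005 in IMQ (log2 change against control 4.10, adjusted p = 0.0572).

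Defb14, a beta-defensin of keratinocytes, was at 0.935 to 1.69 CPM in controls and at 5.76, 8.10, 25.9 and 20.7 in Tcn2-/- IMQ (3.54 ± 0.62, adjusted p = 0.0248). Saa3, an acute-phase serum amyloid, was at 0.66 to 3.18 CPM in controls and at 16.5, 11.97, 997 and 485 in Tcn2-/- IMQ, with 62.4 to 284 in IMQ (7.78 ± 1.65, adjusted p = 0.0446). Lcn2, the siderophore-binding lipocalin, was at 10.8 to 19.4 CPM in controls and 20.3, 37.6, 73.9 and 92.4 in Tcn2-/- IMQ, against 63.3 to 819 in IMQ, and passed in neither comparison (adjusted p = 0.414 and 0.0599). Of 17 tested neutrophil markers, 1 was higher in Tcn2-/- IMQ (median log2 change 0.75) and 4 in IMQ (median 4.03). The Tcn2-/- IMQ median was 3.58 in the fit with sex, 4.25 where only Y-positive libraries were used and 0.21 without control replicate 1. No member of the antimicrobial or neutrophil lists was called between Tcn2-/- IMQ and IMQ. The summed neutrophil list was 93.7 to 272 CPM in controls, 339 to 1475 in Tcn2-/- IMQ and 2646 to 12120 in IMQ. The summed antimicrobial list was 331 to 1944 CPM in controls, 906 to 4258 in Tcn2-/- IMQ and 5310 to 14310 in IMQ. Such sums are set by the most abundant genes. In IMQ replicate 1, where both sums were highest, S100a8 and S100a9 were at 5291 and 6005 CPM. Both sums may largely reflect these 2 genes and are not to be read as separate results. Cxcl2, a neutrophil-attracting chemokine, was at 0.562 to 2.90 CPM in controls, at 3.33, 0, 2.84 and 1.81 in Tcn2-/- IMQ and at 5.09 to 232 in IMQ (log2 change against control 0.54, adjusted p = 0.916).

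Some genes that passed in IMQ lay nearer the control level in Tcn2-/- IMQ. They were picked as the genes furthest back toward control, so their nearness to it was set by the choice. Most genes kept the IMQ direction, as 96 of the 97 lower in IMQ were negative here and all 126 higher were positive. Ppp1r3c, a glycogen-targeting phosphatase subunit, was at 150, 93.2 and 97.1 CPM in controls, at 31.4 to 43.1 in IMQ and at 216, 108, 63.5 and 164 in Tcn2-/- IMQ (log2 change against control 0.28, adjusted p = 0.811). Acsbg1, an acyl-CoA synthetase, was at 299, 447 and 272 CPM in controls, at 69.2 to 138 in IMQ and at 440, 286, 189 and 145 in Tcn2-/- IMQ (-0.36, adjusted p = 0.755). Trim7, a ubiquitin ligase, was at 36.1 to 47.4 CPM in controls, 18.6 to 24.3 in IMQ and 32.3 to 46.8 in Tcn2-/- IMQ (-0.16, adjusted p = 0.797). For none of these did the change between Tcn2-/- IMQ and IMQ pass, the smallest adjusted p of the 3 being 0.0709 for Ppp1r3c. Of the genes higher in IMQ, Upp1, uridine phosphorylase, was at 3.15 to 4.71 CPM in controls, 10.3 to 34.2 in IMQ and 2.67, 3.63, 9.52 and 12.9 in Tcn2-/- IMQ. Its log2 change against control was 0.93 (adjusted p = 0.541), and Tcn2-/- replicates 1 and 2 lay within or below the control range while 3 and 4 lay above it.

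**Figure D3:**
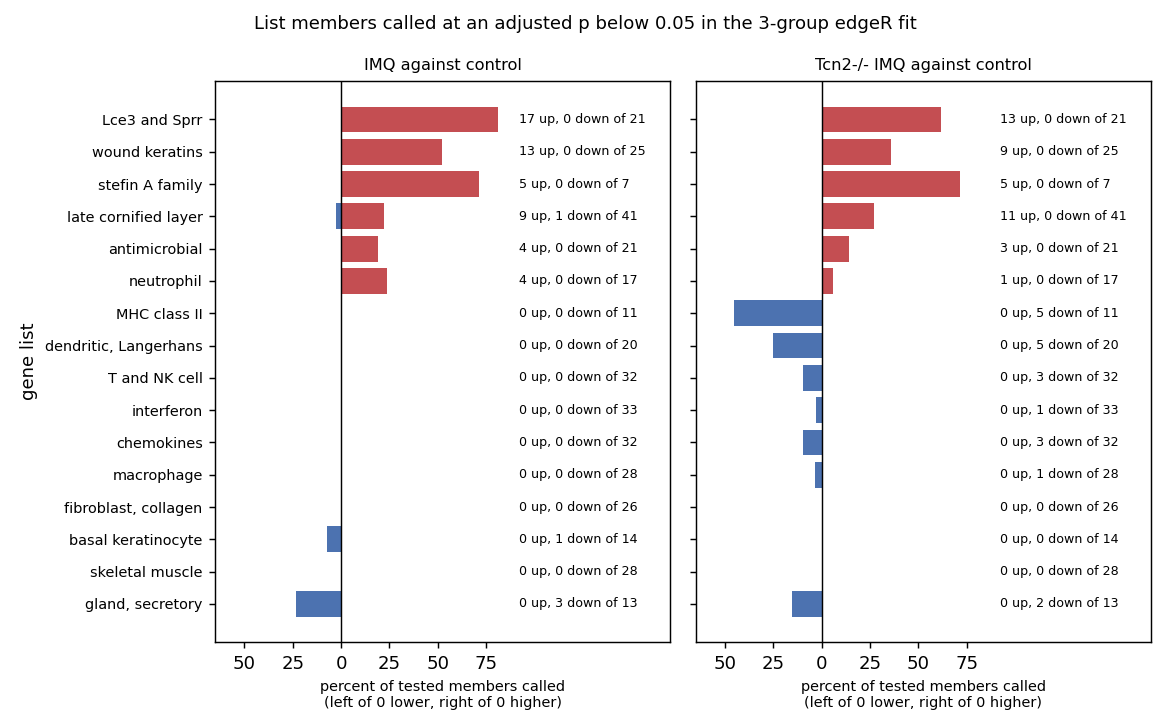
Percent of the tested members of 16 gene lists called at an adjusted p below 0.05, higher to the right of 0 and lower to the left, for IMQ (left panel) and Tcn2-/- IMQ (right panel) against the shared controls; the counts stand beside the bars. Lce3 and Sprr, keratin, stefin and late cornified lists have higher members in both panels, and MHC class II has 5 of 11 lower in the right panel and none called in the left.

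MHC class II genes were below control in Tcn2-/- IMQ skin. These molecules present peptides to CD4 T cells and are made mainly by dendritic cells, macrophages and B cells. Of 11 tested genes of the pathway, 5 were lower (H2-Aa, H2-Ab1, H2-Eb1, H2-DMb1 and Cd74) and none was higher, with a median log2 change of -2.68. In IMQ none was called, with a median of -0.52; the difference between the 2 list results was not tested. H2-DMb1, a peptide-loading subunit, was named after its values were seen. H2-Aa, an alpha chain (chromosome 17, 34501718 to 34506797, GRCm39), was at 63.0, 454 and 616 CPM in controls, at 46.8, 9.41, 8.22 and 18.0 in Tcn2-/- IMQ and at 129 to 215 in IMQ. All Tcn2-/- libraries were below all controls and all IMQ libraries, but control replicate 1 was far nearer to Tcn2-/- replicate 1 than to the other controls. The log2 change against control was -4.20 ± 0.74 (SE, adjusted p = 0.0248). Against IMQ it was -3.15 (adjusted p = 0.128).

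Cd74, the invariant chain that guides class II molecules through the endosome, was at 113, 917 and 1464 CPM in controls, at 87.2, 24.1, 15.6 and 34.3 in Tcn2-/- IMQ and at 268 to 607 in IMQ (-4.37 ± 0.77, adjusted p = 0.0248). H2-Ab1 and H2-Eb1, the beta chains, changed by -3.84 (adjusted p = 0.0262) and -4.02 (adjusted p = 0.0223). The summed list was at 352 CPM in control replicate 1, at 2442 and 3455 in the others, and at 318, 78.4, 223 and 221 in Tcn2-/- IMQ. With sex as a covariate the list's median was -2.22 with no member called, and among libraries with Y-linked reads it was -0.65. Without the 2 libraries of highest mitochondrial share, 7 members were lower and the median was -2.94.

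The sequences before the start sites of 2 of these genes and of the lower chemokine genes Cxcl9 and Cxcl10 are shown because they share a motif, CTGATTGG, known in class II promoters as the Y box and bound by the factor NF-Y. The RefSeq promoter table (GRCm38.p6) holds 250 bases before each start, and the motif was searched there on both strands with no overlap with any other motif considered. It occurred in 1258 of 32851 promoters (3.83%), in 9 of the 101 matched genes lower in Tcn2-/- IMQ (8.91%) and in 3 of the 73 matched higher genes (4.11%). The first share counts single promoters. The other shares count a gene once if any of its promoters matched, which can raise them, so these shares are not alike in measure. The lower genes with it were Calhm6, Cxcl9, Cxcl10, H2-Aa, H2-Eb1, H2-Eb2, H2-Q7, Psmb9 and Tap1. A match is a description of these letters only. Each line gives the 150 bases before the start, 5′ to 3′ on the gene's strand, with the motif (CTGATTGG, or CCAATCAG where it lies on the opposite strand) in capitals. The intervals are chr17:34287824-34287973 (minus strand) for H2-Aa, chr17:34305717-34305866 (plus) for H2-Eb1, chr5:92328080-92328229 (minus) for Cxcl9 and chr5:92348890-92349039 (minus) for Cxcl10.
H2-Aa: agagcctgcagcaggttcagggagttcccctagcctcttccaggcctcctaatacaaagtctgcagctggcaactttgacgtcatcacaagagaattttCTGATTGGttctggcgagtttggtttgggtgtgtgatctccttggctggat
H2-Eb1: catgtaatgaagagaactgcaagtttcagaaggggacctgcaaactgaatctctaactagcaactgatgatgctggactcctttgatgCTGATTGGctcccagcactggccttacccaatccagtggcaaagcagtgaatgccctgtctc
Cxcl9: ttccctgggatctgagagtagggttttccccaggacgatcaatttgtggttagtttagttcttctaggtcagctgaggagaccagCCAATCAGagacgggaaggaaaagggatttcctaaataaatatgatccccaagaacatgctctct
Cxcl10: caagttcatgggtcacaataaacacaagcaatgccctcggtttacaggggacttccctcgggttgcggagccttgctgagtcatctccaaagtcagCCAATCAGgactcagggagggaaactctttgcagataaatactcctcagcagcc
The motif began 51, 62, 65 and 54 bases before the start in H2-Aa, H2-Eb1, Cxcl9 and Cxcl10.

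Of 20 tested dendritic cell markers, 5 were lower in Tcn2-/- IMQ (Ccr7, Flt3, Xcr1, Itgax and Mgl2) with a median log2 change of -1.56, and none was called in IMQ (median 0.009). Flt3, the growth factor receptor on which dendritic cell development depends, was at 1.48, 4.77 and 2.90 CPM in controls, at 0.475, 0.179, 0.495 and 0.292 in Tcn2-/- IMQ and at 1.86 to 4.48 in IMQ (log2 change against control -3.06 ± 0.51, adjusted p = 0.0224). Itgax, CD11c, was at 8.19, 19.1 and 20.1 CPM in controls and at 3.62, 0.893, 0.247 and 1.28 in Tcn2-/- IMQ (-3.38 ± 0.66, adjusted p = 0.0329). Ccr7, the receptor that leads dendritic cells to lymph nodes, was at 3.08 to 4.88 CPM in controls and at 0.371 to 1.19 in Tcn2-/- IMQ (-2.36 ± 0.45, adjusted p = 0.0319). The list's median was -0.35 among libraries with Y-linked reads. No member was called with sex as a covariate, or without control replicate 2 or 3 or Tcn2-/- IMQ replicate 3 or 4. The summed list was 353 CPM in control replicate 1, below the 436, 510.5 and 514 of Tcn2-/- IMQ replicates 1, 3 and 4.

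Of 28 tested macrophage markers 1 was called, and the median log2 change was 0.10. That median was 1.53 in the fit with sex, 3.95 where only Y-positive libraries were used and -0.35 without control replicate 1. The called gene was Ccr2, the receptor that recruits inflammatory monocytes, which was at 7.37, 91.4 and 197 CPM in controls, at 4.40, 1.49, 4.88 and 2.80 in Tcn2-/- IMQ and at 51.2 to 148 in IMQ. All Tcn2-/- libraries were below all others, with control replicate 1 far nearer to them than to the other controls. The log2 change was -4.86 ± 0.83 against control (adjusted p = 0.0224) and -4.80 against IMQ (adjusted p = 0.0709). Csf1r, the growth factor receptor of all macrophages, and C1qa, a complement subunit they make, were chosen after their values were seen. Csf1r was at 6.93, 303 and 397 CPM in controls and at 115, 24.5, 247 and 223 in Tcn2-/- IMQ (-0.63, adjusted p = 0.854). C1qa was at 8.19, 188 and 182 CPM in controls and at 97.2, 15.9, 269 and 158 in Tcn2-/- IMQ (0.10, adjusted p = 0.983). For both, the groups overlapped, and control replicate 1 was the lowest library.

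**Figure D4:**
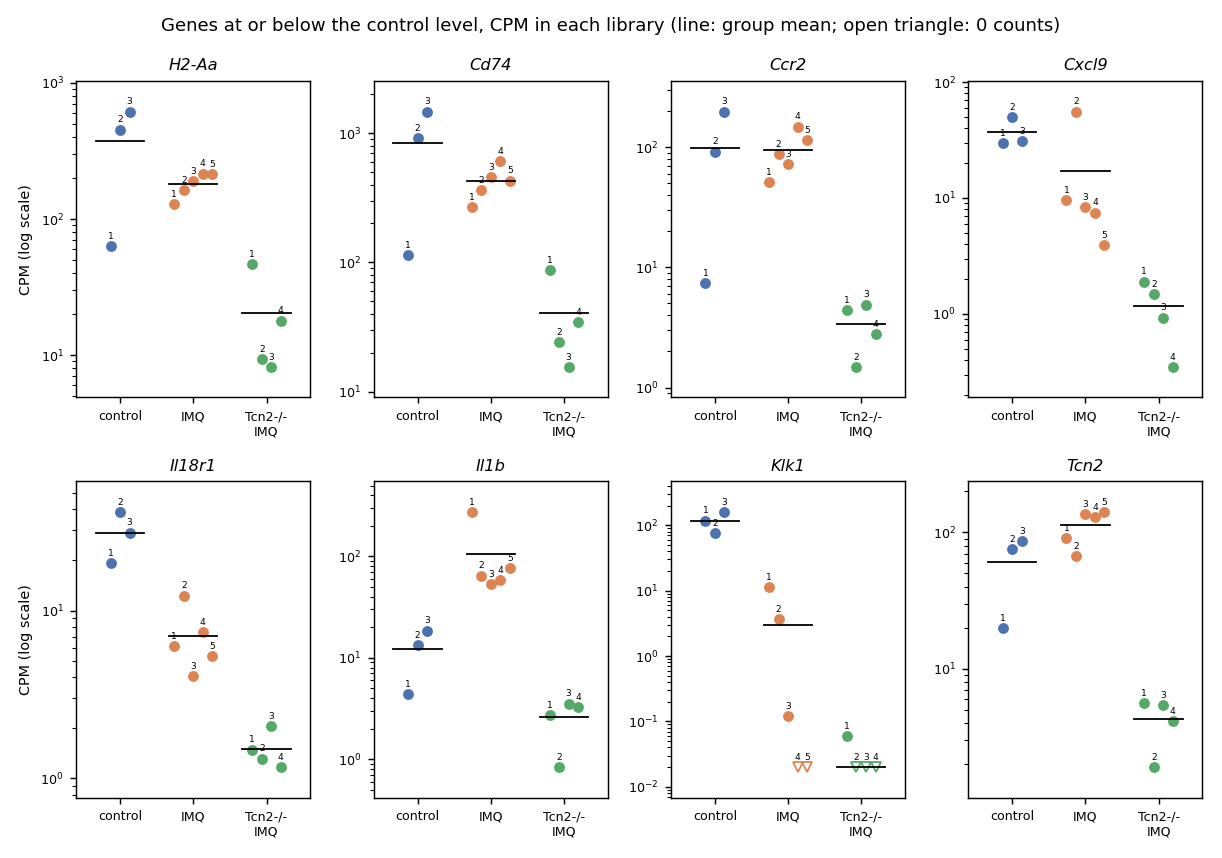
CPM on a log scale in every library for 8 genes whose Tcn2-/- IMQ libraries all lie below the controls; numbers are replicate numbers, the line is the group mean and open triangles mark 0 counts, drawn at the bottom of the axis. Control replicate 1 lies closest to the Tcn2-/- IMQ libraries for H2-Aa, Cd74, Ccr2, Il18r1, Il1b and Tcn2, and all 5 IMQ libraries are above all controls for Il1b.

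Of 32 tested T and natural killer cell markers, 3 were lower in Tcn2-/- IMQ (Icos, Klrd1 and Nkg7) with a median log2 change of -2.74, and none was called in IMQ (median -0.60). Icos, a costimulatory receptor of T cells, was at 1.98, 10.8 and 10.7 CPM in controls and at 1.07, 0.655, 0.68 and 1.17 in Tcn2-/- IMQ (-3.12 ± 0.54, adjusted p = 0.0237). Klrd1, CD94, a natural killer receptor, was at 3.52, 10.4 and 9.31 CPM in controls and at 0.713, 0.953, 0.0618 and 0.233 in Tcn2-/- IMQ (-3.96 ± 0.74, adjusted p = 0.0294). The summed list was 86.2 CPM in control replicate 1 and 122 to 215 in Tcn2-/- IMQ, so that library was below all 4. Without the 2 libraries of highest mitochondrial share, 10 of the list were lower. With sex as a covariate none was called and the median was -1.93, and among libraries with Y-linked reads the median was -0.58. No member was called without control replicate 2 or 3 or Tcn2-/- IMQ replicate 3 or 4. None of 12 tested B cell markers was called.

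Of 32 tested chemokines 3 were lower (Cxcl9, Cxcl10 and Ccl1), with a median log2 change of -0.60, and none was called in IMQ. The change was negative for 20 of the 32 and positive for 12. The summed list was 442 to 1744 CPM in controls and 573, 386, 2777 and 2514 in Tcn2-/- IMQ replicates 1 to 4. With sex as a covariate no member was called and the median was -0.25. Among libraries with Y-linked reads the median was -0.07. Cxcl9, which attracts CXCR3-bearing T cells, was at 29.6, 49.9 and 30.8 CPM in controls, at 1.90, 1.49, 0.927 and 0.35 in Tcn2-/- IMQ and at 3.90 to 55.5 in IMQ (log2 change against control -4.97 ± 0.90, adjusted p = 0.0267). Here control replicate 1 was level with replicate 3. Cxcl10, another CXCR3 ligand, was at 28.4, 122 and 38.6 CPM in controls and at 3.09, 1.73, 2.66 and 1.28 in Tcn2-/- IMQ (-4.84 ± 1.02, adjusted p = 0.0432). Among 33 tested interferon response genes 1 was called lower, Irf9, the DNA-binding subunit of the interferon-stimulated complex. It was at 104, 145 and 122 CPM in controls, at 24.4, 25.1, 34.7 and 33.3 in Tcn2-/- IMQ and at 39.4 to 116 in IMQ (-2.07 ± 0.36, adjusted p = 0.0227). The list's median log2 change was -2.76 in Tcn2-/- IMQ and -1.21 in IMQ, and no other member was called in the fit reported. DESeq2 called 21 of the list lower and limma voom called 31. No member was called with sex as a covariate, or without control replicate 2 or 3 or Tcn2-/- IMQ replicate 3 or 4. The interferon median was -2.66 in the fit with sex and -1.57 among libraries with Y-linked reads.

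Single cytokine and cytokine receptor genes were also measured. Il18r1, the interleukin-18 receptor of lymphocytes, was at 19.2, 38.6 and 29.1 CPM in controls, at 1.49, 1.31, 2.04 and 1.17 in Tcn2-/- IMQ and at 4.06 to 12.3 in IMQ. The 3 groups did not overlap. The log2 change against control was -4.26 ± 0.41 (adjusted p = 0.00228), and it was 1 of the 2 lower calls kept when control replicate 3 was left out. Il12b, the subunit shared by interleukins 12 and 23, had 37 counts in controls and 1 in Tcn2-/- IMQ, a ratio of 46.2 with an exact 95% counting interval of 7.79 to 1870. Il17f had 7 counts in controls and 3 in Tcn2-/- IMQ, a ratio of 2.91 (0.665 to 17.5). It was at 0.646 to 1.70 CPM in IMQ, and its change between Tcn2-/- IMQ and IMQ did not pass (-4.65, adjusted p = 0.0983).

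Il1b, which encodes the inflammatory cytokine interleukin-1 beta and stands in the study's title, was at 4.34, 13.4 and 18.5 CPM in controls, at 53.1 to 274 in IMQ and at 2.73, 0.834, 3.52 and 3.27 in Tcn2-/- IMQ. All Tcn2-/- libraries were below all controls and all IMQ libraries. The log2 change against IMQ was -5.34 (adjusted p = 0.0349). This call was lost in 12 of 24 alternative fits, 10 of them fits that left out 1 library, with adjusted p-values up to 0.173 among those and 0.647 with the muscle score, and log2 changes of -5.53 to -3.81. Against control it was -2.22 ± 0.68, which did not pass (adjusted p = 0.156), and the change of IMQ against control was 3.12 (adjusted p = 0.0635). Stat3, the other gene in that title, was at 137, 225 and 211 CPM in controls, 219 to 283 in IMQ and 175, 106, 186 and 224 in Tcn2-/- IMQ, with overlap between all groups (log2 change against control -0.15, adjusted p = 0.876). Its feedback target Socs3 was at 20.9 to 36.8 CPM in controls and 13.9 to 46.1 in Tcn2-/- IMQ (0.25, adjusted p = 0.868). Mki67, a proliferation marker, was at 347, 124 and 128 CPM in controls and 213, 536, 270 and 272 in Tcn2-/- IMQ (0.69, adjusted p = 0.567).

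Some of the lowest values were for gland and secretory genes, most of which were also low in IMQ skin. Klk1, tissue kallikrein (chromosome 7, 43874784 to 43879042, GRCm39), was at 118, 75.7 and 160 CPM in controls and had 1 count in the 4 Tcn2-/- IMQ libraries against 6310 in controls. The ratio was 7880, with an exact 95% counting interval of 1410 to 311000. In IMQ it was at 11.3, 3.70, 0.121, 0 and 0 CPM. Its relatives Klk1b21, Klk1b24 and Klk1b27, glandular kallikreins, had 307, 307 and 314 counts in controls and 0 in Tcn2-/- IMQ, and were at least 128-fold, 128-fold and 131-fold lower taking 3 counts per group as the floor. These copies are similar and their reads may be shared. Defb8, a beta-defensin, was at 72.04, 26.5 and 33.4 CPM in controls and had no count in Tcn2-/- IMQ, at least 986-fold lower. A2ml1, a protease inhibitor, had 340 control counts and none in Tcn2-/- IMQ, at least 142-fold lower. Chgb, a granin of secretory granules, was at 24.0 to 26.2 CPM in controls and had 1 count in Tcn2-/- IMQ, a ratio of 1690 (303 to 66800). Asgr1, a lectin receptor, was at 5.17 to 5.72 CPM in controls and had 2 counts in Tcn2-/- IMQ, a ratio of 180 (49.5 to 1500). Control replicate 1 was not the lowest control for Klk1, Klk1b21, Defb8, A2ml1, Chgb or Asgr1. The gland list itself had 2 of 13 tested members lower in Tcn2-/- IMQ and 3 of 13 in IMQ. In Tcn2-/- IMQ 7 of the 13 had a negative change and 6 a positive one, with a median log2 change of -0.12. The genes named here were picked for their large changes, and by the signs of its tested members the gland list was not generally lower. Its summed level, which the most abundant members set, was 569.5 to 1814 CPM in controls. That sum was 221 to 270 CPM in Tcn2-/- IMQ and 187 to 223 in IMQ, below every control in both. With no filter on low counts, 24 members were tested and 7 had a positive change, with a median log2 change of -1.4.

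Few genes set Tcn2-/- IMQ apart from IMQ directly. In that comparison 1 gene was higher (0.00551% of those tested) and 4 were lower (0.022%), with 2146 at an unadjusted p below 0.05. Tcn2 itself (chromosome 11, 3867192 to 3882159, GRCm39) was at 19.9, 75.9 and 85.9 CPM in controls, 67.0 to 141 in IMQ and 5.59, 1.91, 5.44 and 4.14 in Tcn2-/- IMQ. No Tcn2-/- library overlapped another group, at a log2 change of -3.82 ± 0.51 against control (adjusted p = 0.00789) and -4.72 against IMQ (adjusted p = 0.00695). Without control replicate 3 the change against control was -3.49 (adjusted p = 0.0608). Reads remained in the Tcn2-/- libraries, and which exons they fell on cannot be read from gene counts. Of 101 tested genes within 10 Mb of Tcn2, none was called, with a median log2 change of 0.14.

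The other genes called against both groups were Gm15446, Gm9733 and Wdfy1. Gm15446, a gene model on chromosome 5, was at 19.1, 15.6 and 18.7 CPM in controls, 9.63 to 15.4 in IMQ and 0.416, 1.49, 0.495 and 0.467 in Tcn2-/- IMQ (-4.62 ± 0.42 against control, adjusted p = 0.00228). Wdfy1, an adaptor in Toll-like receptor 3 and 4 signalling, was at 25.3, 23.0 and 22.2 CPM in controls, 17.2 to 26.3 in IMQ and 48.0, 47.3, 41.4 and 53.8 in Tcn2-/- IMQ, with no overlap (1.02 ± 0.18, adjusted p = 0.0248). Against IMQ, the calls of Wdfy1 and Gm9733 were lost in 12 and 10 of 24 alternative fits, and those of Tcn2 and Gm15446 in 4 and 2. Gm9733 was at 0.495 to 2.02 CPM in controls and at most 0.0596 in Tcn2-/- IMQ (-5.06 ± 0.83, adjusted p = 0.0224).

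Genes of vitamin B12 uptake and processing other than Tcn2 were not called. Of 17 tested, 1 was lower (Tcn2) and none was higher, with a median log2 change of -0.09. Cd320, the receptor for transcobalamin-bound vitamin, was at 18.5, 16.8 and 17.6 CPM in controls and at 12.4, 17.3, 10.8 and 11.3 in Tcn2-/- IMQ (-0.45 ± 0.27, adjusted p = 0.554). Of 34 tested folate and methionine cycle genes none was called, with a median of 0.18.

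**Figure D5:**
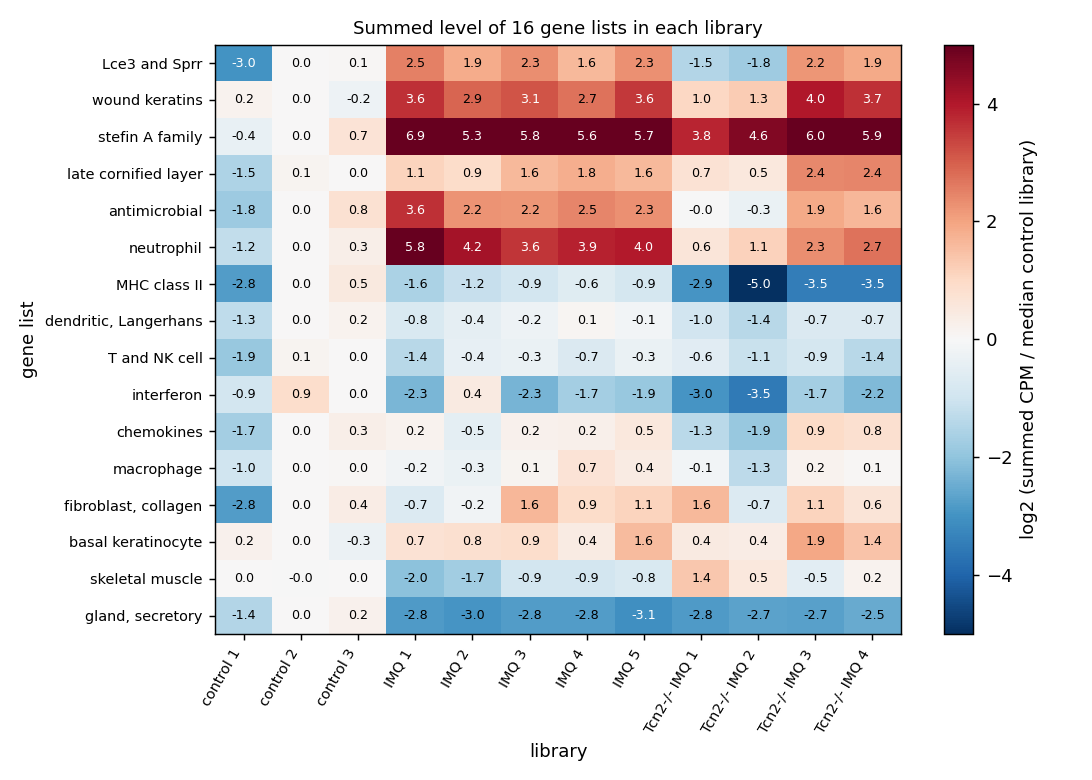
Summed CPM of 16 gene lists in each library, as log2 of the ratio to the median control library; red is above and blue below it. Control replicate 1 is below the other controls for most immune and matrix lists (-2.80 for MHC class II), Tcn2-/- IMQ replicates 1 and 2 differ from 3 and 4 in the Lce3 and Sprr row (-1.46 and -1.77 against 2.20 and 1.91), and skeletal muscle is highest in Tcn2-/- IMQ replicate 1 at 1.36.

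Markers of other tissues varied between libraries. The summed skeletal muscle list was 17800 to 18080 CPM in controls, 4392 to 10630 in IMQ and 46430, 25970, 12580 and 20340 in Tcn2-/- IMQ replicates 1 to 4, with none of 28 tested members called. Myh3, an embryonic myosin of regenerating muscle chosen after its values were seen, was at 0.112 to 3.46 CPM in controls and at 89.8, 21.5, 4.14 and 0.408 in Tcn2-/- IMQ (3.96, adjusted p = 0.389). A fit that also held a muscle score called 122 higher and 133 lower genes in Tcn2-/- IMQ against control. Fibroblast and collagen genes summed to 2860 CPM in control replicate 1, to 19700 and 25230 in the other controls and to 12300 to 60630 in Tcn2-/- IMQ, with none of 26 called.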

How the data were processed

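Bulk RNA-seq of 12 skin libraries was analysed (3 control, 5 IMQ, 4 Tcn2-/- IMQ). The authors deposited raw read counts per gene for all libraries in 1 table, with whole numbers and no normalization; the build GRCm39 is named per the submitters' processing notes, and the aligner, counter and strand setting were not given in the sources used here. Groups were taken from the sample labels. From 33539 genes, those passing edgeR's filterByExpr (18147) were fitted with TMM factors and edgeR's quasi-likelihood test (edgeR 4.0.16, R 4.3.3), with 1 mean per group over all 12 libraries, and p-values were adjusted by Benjamini-Hochberg over all tested genes. A gene was called at an adjusted p below 0.05. CPM used the tested genes' totals times the TMM factors, for description only. Against 0 counts a fold was bounded by taking 3 counts for the whole group. Ratios at 1 to 3 counts have exact 95% intervals that cover counting error only. Totals of 16182324 to 18503487 counts set the precision.

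Genes were named by rule: Tcn2; readouts of the model; the 15 called genes with the largest change in each direction, at 1 CPM or more in the higher group and without overlap; genes called in IMQ that moved furthest or returned furthest; up to 4 called members of each list and direction; genes called against both groups; and close copies. Others are said to be chosen after their values were seen. The comparison and the gene lists were chosen with earlier results of these data known. Alternatives were DESeq2 1.42.0, limma 3.58.1 voom, other scalings and filters, covariates, a replicate block and leaving out each library. The script was tested on simulated data. The result for 1 gene is not reported here.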

Additional observations from a re-analysis of the deposited data

Results flagged for a closer look

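Within the Tcn2-/- IMQ and IMQ groups, 24 of 165 tested gene and group combinations had a highest or lowest library far from the rest. Dixon's test was used at the 95% level, which chance alone passes in some groups. Several of the 24 fell on the same libraries. The control group was not tested in this way.

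IMQ replicate 1 was the highest of its group for Il1b (274 CPM, next 77.0), Stfa3 (6253, next 2246), Klk11 (80.7, next 49.1), S100a8 (5291, next 1750), S100a9 (6005, next 2195), Cxcl2 (232, next 34.2) and Klk1b21 (0.233, the others at 0). It is also the IMQ library with 18572 Xist counts, against at most 8 in the other IMQ libraries. IMQ replicate 2 was the highest for Nkg7 (3.82 CPM), Cxcl9 (55.5), Cxcl10 (50.3), Irf9 (116), Chgb (3.70) and Cyp4f14 (17.6). IMQ replicate 5 was the highest for Krt16 (4031 CPM) and Krt14 (13437), and replicate 4 for Ear2 (16). IMQ replicate 3 was the lowest for Ppp1r3c (31.4 CPM).

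In Tcn2-/- IMQ, Gm15446 was at 1.49 CPM in replicate 2 against 0.495 in the next, and Mmp12, a macrophage elastase, at 4.52 in replicate 1 against 1.85. The remaining values rest on 1 or 2 counts: Il12b at 0.0594 CPM, Klk1 at 0.0594 and Asgr1 at 0.119 in replicate 1, Chgb at 0.0618 in replicate 3, and Il17f at 0 in replicate 4.

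Between the 2 IMQ groups, 5 genes differed in edgeR's test: Gm15446 (log2 change of Tcn2-/- IMQ against IMQ -4.12), Gm9733 (-6.23), Il1b (-5.34), Tcn2 (-4.72) and Wdfy1 (1.20).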

How the results depend on the processing

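Counts are given as higher and lower genes. For Tcn2-/- IMQ against control (105 and 133), DESeq2 called 523 and 527, limma voom 1262 and 1686, a fit of only the groups compared 20 and 82, sex as a covariate 19 and 8, libraries with Y-linked reads alone 0 and 0, and the fit without the 2 libraries of highest mitochondrial share 159 and 237. Leaving out 1 library gave 1 to 177 higher and 2 to 322 lower. For IMQ against control (126 and 97) these were 667 and 459 with DESeq2, 1208 and 1820 with voom, 322 and 219 with only the groups compared, 0 and 0 among libraries with Y-linked reads, 47 lower with sex as a covariate, 15 and 2 with the muscle score as a covariate, and 4 to 208 and 4 to 240 leaving out 1 library. For Tcn2-/- IMQ against IMQ (1 and 4) they were 244 and 356 with DESeq2, 4 and 24 with voom, 5 and 37 with only the groups compared, 4 and 13 with no filter on low counts, 29 lower among libraries with Y-linked reads, 0 and 0 with the muscle score, 7 and 44 without the 2 libraries of highest mitochondrial share, and 0 to 8 and 1 to 87 leaving out 1 library. The Tcn2 change against control (-3.82) was -3.19 in the fit with sex (adjusted p = 0.1). It was -2.27 where only Y-positive libraries were used (adjusted p = 0.218), and it ran from -4.24 to -3.49 leaving out 1 library. The causes were not tested, and some of these fits also held fewer libraries. With the replicate block the counts were 15 and 5, 41 and 5, and 0 and 0 in the 3 comparisons, and the Tcn2 change was -3.86 (adjusted p = 0.0707). The labels do not say whether same-numbered libraries are paired. Deviations of same-numbered control and Tcn2-/- IMQ libraries from their group means correlated at 0.0186, -0.531 and 0.304, values too few to decide it. Other scalings and filters kept the counts against control within 1.5 times, and the median of all genes stayed between -0.0187 and 0.0425. Levels near 1 CPM rest on few counts.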
